A study of Mus musculus with 157 samples.

Results

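The genes that build MHC class I molecules and supply them with peptides were followed through polysome gradients of activated mouse B cells. The set was given by name and holds 10 of the 19600 genes in the count table: the class I heavy chains H2-K1 and H2-D1, the class I light chain B2m, the peptide transporter subunits Tap1 and Tap2, the loading bridge Tapbp, the immunoproteasome subunits Psmb8, Psmb9 and Psmb10, and the transactivator Nlrc5. A member was taken where the gene name in the table equalled its symbol, and 10 of 10 members passed the filter on low counts. The set was proposed with earlier results of these data known. Splenic B cells of C57BL/6Babr mice, 8 to 12 weeks old per the study's methods, were isolated by magnetic sorting, activated with lipopolysaccharide (LPS, a mitogen) at 10 µg/ml and fractionated over sucrose gradients, and mRNA 3′ ends were counted in fractions 4 to 16. In the LPS group the cells had LPS for 48 h and nothing more. In the LPS+ET group 48 h of LPS were followed by 4 h of etoposide at 20 µM, a drug that traps topoisomerase II and breaks DNA. In the LPS+ET+KU group the cells had 47 h of LPS, then 1 h of KU55933 at 10 µM, an inhibitor of the DNA damage kinase ATM, and then the same etoposide treatment. All 3 groups therefore carry LPS activation, no group received KU55933 alone, and the effect of etoposide and that of 4 further hours in culture cannot be told apart where the LPS cells were harvested at 48 h. Each group had 4 gradients, 1 under each of the codes LUL15, LUL16, LUL17 and LUL18 in the column names. The codes are called pools here, though the labels do not say what they stand for. Values are given below in that order of pools. The labels do not say whether the gradients came from separate mice or cultures, so p-values measure the spread between these gradients.

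MHC class I molecules display peptides from the cell's own proteins to CD8+ T cells. Proteasomes cut the peptides, the Tap1-Tap2 heterodimer carries them into the endoplasmic reticulum, and Tapbp (tapasin) holds the empty heavy chain and B2m next to the transporter until a peptide binds. Psmb8, Psmb9 and Psmb10 are interferon-inducible catalytic subunits that take the place of Psmb5, Psmb6 and Psmb7, and Nlrc5 activates class I promoters together with the factors that bind their conserved X and Y boxes.

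In the GRCm38 assembly 7 of the 10 genes lie on chromosome 17, in the major histocompatibility complex. H2-K1 (ENSMUSG00000061232) spans 33996017 to 34000333 on the minus strand and Tapbp (ENSMUSG00000024308) 33915899 to 33929288 on the plus strand. Psmb9 (ENSMUSG00000096727; 34181988 to 34187764, minus), Tap1 (ENSMUSG00000037321; 34187553 to 34197225, plus), Psmb8 (ENSMUSG00000024338; 34197721 to 34201454, plus) and Tap2 (ENSMUSG00000024339; 34203527 to 34216321, plus) sit side by side, and H2-D1 (ENSMUSG00000073411) lies farther along at 35262730 to 35267499 on the plus strand. B2m (ENSMUSG00000060802) is on chromosome 2 at 122147686 to 122153083. Psmb10 (ENSMUSG00000031897; 105935728 to 105938392, minus) and Nlrc5 (ENSMUSG00000074151; 94472763 to 94527272, plus) are on chromosome 8. For 7 members the table counted tags at 1 poly(A) site, and for H2-D1, B2m and Nlrc5 at 2. The sites lay in 3′ untranslated regions in GENCODE M21, except that of Psmb9, 2 bases past the annotated end, and an intronic site with 5.28% of the Nlrc5 tags. The 2 B2m sites lay 191 and 321 bases before the nearest annotated transcript end, with no counted site at that end. Any B2m tags at other ends are therefore not in its level. H2-D1 split its tags between position 35267363 (62.1%) and position 35267490 (37.9%). H2-K1 and H2-D1 have near-identical relatives in the H2-Q and H2-T families, and how tags that fit several loci were handled is not given in the sources used here, so their levels are uncertain to that extent.

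The promoters are shown because class I genes and their helpers are known to share regulatory boxes. RefSeq promoter windows (GRCm38.p6, 250 bases before to 50 bases after a start) were found for 8 of the 10 members, not for Tap2 or Nlrc5. Both strands of each window were searched for 4 motifs: the Y box ATTGG, the cAMP response core TGACG, an interferon response pair (GAAA, any 2 bases, GAAA) and an NF-kB-type site (GGGA, any 4 bases, CC). Of 32851 promoters, 37.4% held ATTGG, 20.8% TGACG, 3.44% the interferon pair and 20.7% the NF-kB-type site. H2-K1, H2-D1 and B2m each held TGACG followed by ATTGG on the coding strand with 25 bases from start to start, a spacing found in 19 of 32851 promoters (0.0578%). That stretch is printed here for the 3 genes with both motifs in capitals, at chr17:34000359-34000388 (minus), chr17:35262993-35263022 (plus) and chr2:122147609-122147638 (plus).
H2-K1 core: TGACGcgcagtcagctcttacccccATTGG
H2-D1 core: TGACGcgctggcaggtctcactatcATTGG
B2m core: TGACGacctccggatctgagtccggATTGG

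The H2-K1 and B2m promoters are shown with the same capitals over the 200 bases before the start, at chr17:34000334-34000533 (minus) and chr2:122147487-122147686 (plus). Both have an NF-kB-type match that reads on both strands, and H2-K1 has a second Y box on the other strand (CCAAT). Of the 8 members with a window, only B2m matched the interferon pair as written above, in 10 capitals. Variants of that pattern were not searched, so a window without a match may still hold one.
H2-K1: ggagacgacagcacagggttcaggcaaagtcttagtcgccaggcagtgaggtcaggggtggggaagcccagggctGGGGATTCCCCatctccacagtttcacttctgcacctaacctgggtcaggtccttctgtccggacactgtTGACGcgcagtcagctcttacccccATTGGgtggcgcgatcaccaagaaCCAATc
B2m: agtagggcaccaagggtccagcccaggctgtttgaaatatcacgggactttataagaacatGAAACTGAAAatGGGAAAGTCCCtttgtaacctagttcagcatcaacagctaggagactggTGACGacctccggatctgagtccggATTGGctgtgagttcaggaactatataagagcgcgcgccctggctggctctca

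Tap1 and Psmb9 point away from each other with RefSeq starts 226 bases apart, so their windows overlap over 275 bases. The gene span of Psmb9 given above runs to 34187764, past the Tap1 start at 34187553, so the spans themselves overlap. The bases between the RefSeq starts, at chr17:34187331-34187555 (plus), are shown because this promoter serves both genes. They held a Y box on the other strand and TGACG. Psmb10 is shown as the member that passed the test in the comparisons with LPS: the 198 bases at chr8:105938445-105938642 (minus), upstream of its farthest GENCODE start, held none of the 4 motifs. No match was found in the Psmb8 window either, which lies inside the first exon of another Psmb8 transcript, while the Tapbp window held 2 Y boxes. No match says only that these letters are not in the window.
Tap1 and Psmb9: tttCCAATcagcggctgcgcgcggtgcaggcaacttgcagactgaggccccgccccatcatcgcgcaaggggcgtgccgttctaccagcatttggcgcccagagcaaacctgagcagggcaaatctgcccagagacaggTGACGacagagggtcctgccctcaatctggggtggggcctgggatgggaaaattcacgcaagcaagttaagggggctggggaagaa
Psmb10: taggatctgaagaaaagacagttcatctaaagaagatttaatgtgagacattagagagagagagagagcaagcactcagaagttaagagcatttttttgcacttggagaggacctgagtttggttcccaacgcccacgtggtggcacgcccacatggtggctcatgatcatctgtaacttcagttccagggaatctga

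The 156 libraries of fractions 4 to 16 held 14724 to 4170688 counts (median 811932), and the 12 gradients 6404957 to 21449781. Equal RNA went into each library, so a library total does not measure the mRNA in its fraction. The LPS+ET gradient of pool LUL16 was the smallest and stood apart: the median gene had 30.7% of its deposited counts in heavy polysomes there, against 68.4% to 74.3% in the other LPS+ET gradients, and results that rest on it are given without it. The sum of 7 B cell markers (Cd79a, Cd79b, Ms4a1, Pax5, Cd22, Blk and Ebf1) was 1416 to 1677 CPM (counts scaled to a common library size) in LPS gradients, 752 to 902 with etoposide and 794 to 1370 with KU55933 added, so LPS lay above both other groups. Cd79b was at 700.1 to 1025, 551 to 633 and 606 to 922 in the same order, and Cd22 at 408 to 464, 57.7 to 192 and 88.2 to 216, while Pax5 (at most 2.59) and Ebf1 (at most 3.86) were near 0. Of the T cell list 6 of 8 markers were in the table and summed to 74.9 to 367, nearly all of it Lck (71.9 to 362), with Cd3e, Cd3d, Cd3g and Cd8a at 1.61 or less. The 7 myeloid markers in the table summed to 33.6 to 94.3 in LPS gradients, to 46.0 to 158 with etoposide and to 29.1 to 121 with KU55933 added, while 2 NK cell markers stayed at or under 4.09 and 3 erythroid markers at or under 1.38. The part of these markers in the results was not tested, and fewer cells of a type cannot be told apart from less RNA per cell.

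Class I and peptide supply mRNAs covered a wide range of levels on ribosomes (normalised CPM over fractions 4 to 16 of a gradient, in which each mRNA end counts once so that length does not enter). In LPS cells Tapbp led with 3840 ± 645 CPM (SD, n = 4), above 99.9% of the tested genes, followed by H2-K1 with 1987 ± 460, Psmb8 with 1474 ± 190 and H2-D1 with 1088 ± 141. B2m, the partner of every class I heavy chain, had 424 ± 14.0 at its 2 counted sites, and Tap1 359 ± 58.0. Levels cover the counted sites only, so the order of genes may differ from that of all their mRNA. Psmb9 (172 ± 26.5), Psmb10 (170 ± 39.6) and Tap2 (64.3 ± 12.3) followed, and Nlrc5 was lowest with 16.5 ± 1.55, above 53.3% of the genes. The ranges of neighbours overlapped for H2-K1 and Psmb8, B2m and Tap1, and Psmb9 and Psmb10, and were apart for the other neighbours. Tap1 stood well above Tap2, its partner in the transporter, in each of the 12 gradients. In LPS+ET cells the order became Tapbp, H2-K1, H2-D1, Psmb8, Tap1, B2m, Psmb9, Tap2, Psmb10 and Nlrc5, with overlapping ranges for Tapbp and H2-K1, Tap1 and B2m, and Tap2 and Psmb10. The order in LPS+ET+KU differed from it only in that Psmb10 preceded Tap2, and the ranges of H2-D1 and Psmb8 overlapped there too. Members had 131 to 94944 counts per gradient, the fewest in Nlrc5, so its values carry the most counting error.

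**Figure D1:**
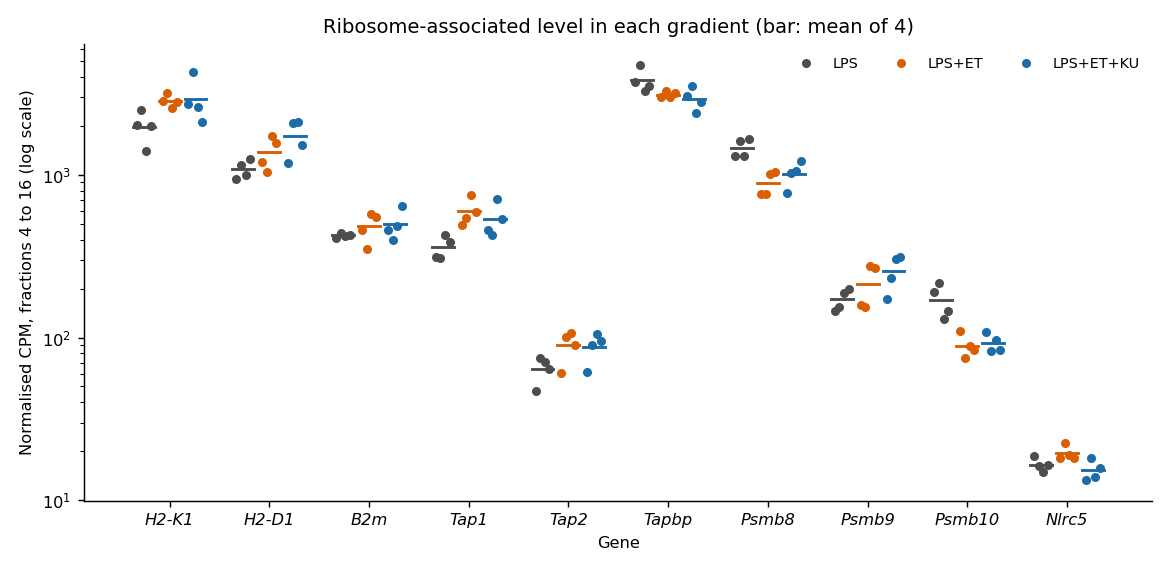
Normalised CPM of the 10 genes on a log axis, with 1 point per gradient (4 in each of LPS, LPS+ET and LPS+ET+KU) and bars for the mean. Tapbp lies highest and Nlrc5 lowest, and the LPS+ET points of H2-K1 and Tap1 lie above, those of Tapbp, Psmb8 and Psmb10 below, all LPS points.

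The first question was which of these mRNAs changed their association with ribosomes when etoposide was added. One member was called, at an edgeR quasi-likelihood adjusted p under 0.01 (Benjamini-Hochberg over all genes tested): Psmb10, which fell. That is 1 of 10, beside 12.7% of the 12755 genes tested. Each pool held 1 gradient per treatment and same-pool gradients deviated together, so the fit was repeated with the pool as a block, which called 4 members (Tap1 and Tap2 higher, Psmb8 and Psmb10 lower) and 26.7% of all genes. Of the 1618 genes called 1005 were higher and 613 lower, and with equal weight per fraction 782 and 260. The median log2 fold change was 0.27 over the members and 0.03 over all genes. The groups did not overlap in 5 of 10 members, beside 27.5% of all genes.

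The transporter subunits lay higher after etoposide, and in the edgeR test neither passed without the pool as a block. DESeq2 without a block called Tap1 (adjusted p 0.00409) and not Tap2 (0.134). Tap1 had 313, 307, 426 and 387 CPM in LPS and 495, 547, 753 and 593 in LPS+ET. Every LPS+ET gradient exceeded every LPS gradient. The log2 fold change was 0.73 ± 0.21 (SE; edgeR adjusted p 0.0214, block 0.000353). Tap2 had 47.0, 74.7, 71.1 and 64.3 CPM in LPS against 60.1, 101, 107 and 90.3 in LPS+ET. Its groups overlapped, but the LPS+ET gradient was the higher in 4 of 4 pools, and the difference of 0.48 ± 0.23 passed with the block and not without it (adjusted p 0.152, block 0.00639).

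Of the heavy chains, H2-K1 had 2024, 2524, 1398 and 2000 CPM in LPS and 2856, 3201, 2590 and 2815 in LPS+ET. The groups were apart, yet the LPS gradients spread widely and the fold change of 0.53 ± 0.24 was not called (adjusted p 0.130, block 0.0176). H2-D1 had 939, 1159, 1004 and 1248 in LPS and 1208, 1047, 1730 and 1584 in LPS+ET. These overlapped, with pool LUL16 lower and the other pools higher in LPS+ET (0.36 ± 0.23, adjusted p 0.300). B2m had 408, 442, 420 and 427 in LPS, the group with the smallest SD relative to its mean among the members, and 459, 351, 575 and 550 in LPS+ET, with 1 gradient below and 3 above the LPS range (0.19 ± 0.19, adjusted p 0.547).

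Of the 3 immunoproteasome subunits Psmb10 fell, Psmb8 was lower and passed with the block, and Psmb9 was not called in either fit. Psmb10 had 191, 215, 130 and 146 CPM in LPS and 109, 74.3, 89.2 and 84.3 in LPS+ET. All LPS+ET gradients lay below all LPS gradients, and the log2 fold change was -0.93 ± 0.20 (adjusted p 0.00378, block 0.000425). When each gradient of the 2 groups was left out in turn the fold change was -1.05 to -0.81 and the call held in 4 of 8 fits (adjusted p 0.00273 to 0.0153). It was lost without the LPS gradients of pools LUL15 (0.0133) and LUL16 (0.0136) and without the LPS+ET gradients of LUL17 (0.0113) and LUL18 (0.0153), and it held with LUL16 left out of LPS+ET (0.00867). With every fraction given equal weight the difference was -0.78 with an adjusted p of 0.0255. Psmb8 had 1306, 1613, 1315 and 1663 CPM in LPS and 769, 768, 1009 and 1043 in LPS+ET. These did not overlap either, and the fold change of -0.72 ± 0.19 passed with the block (adjusted p 0.0155, block 0.00126) and by DESeq2 without it (0.000697). Psmb9, which shares its promoter with Tap1, had 145, 153, 188 and 200 in LPS and 158, 153, 274 and 267 in LPS+ET, with overlapping groups (0.31 ± 0.25, adjusted p 0.420).

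Tapbp had 3750, 4768, 3305 and 3538 CPM in LPS and 3022, 3275, 3016 and 3180 in LPS+ET. The LPS+ET gradients were the lower in 4 of 4 pools and the groups were just apart, with a fold change of -0.30 ± 0.18 that was not called (adjusted p 0.263). Nlrc5, at 18.6, 16.1, 14.8 and 16.3 CPM in LPS and 18.02, 22.5, 19.02 and 18.2 in LPS+ET, overlapped by 1 LPS gradient (0.24 ± 0.16, adjusted p 0.333).

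**Figure D2:**
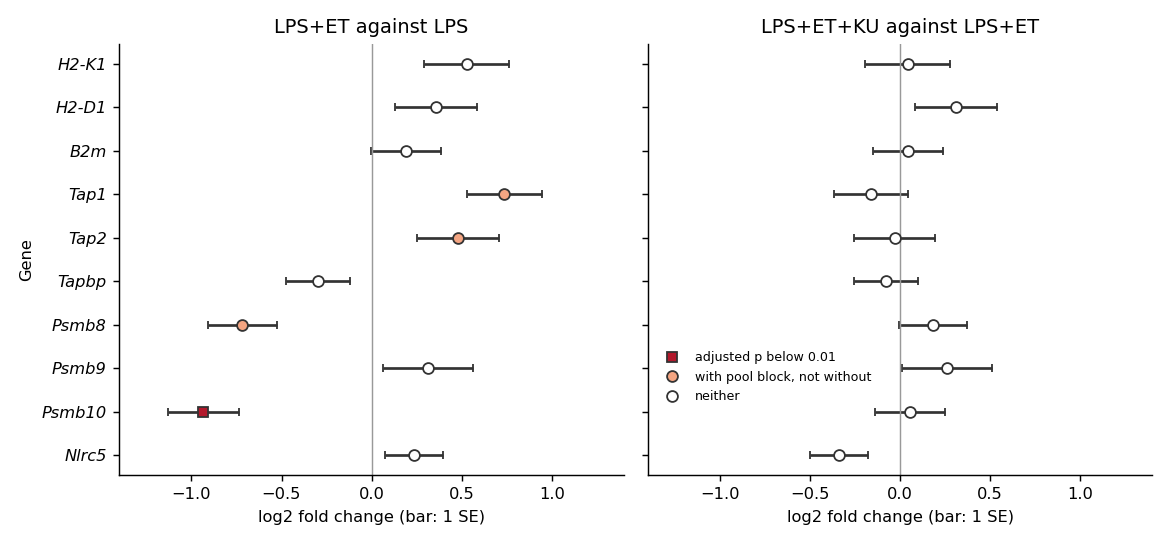
Log2 fold change of ribosome-associated mRNA for the 10 genes, with bars of 1 SE from the fit on 12 gradients, a red square for a called gene, orange circles for genes that passed this test with the pool as a block and not without it, and open circles for the rest, for the etoposide comparison (left) and the KU55933 comparison (right). Psmb10 at -0.93 and Tap1 at 0.73 mark the ends in the first comparison, and no gene was called in the second.

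Within heavy polysomes (fractions 11 to 16) Psmb10 was again the member called after etoposide, beside 9.69% of 11368 genes. It fell by 1.08 on the log2 scale (± 0.25, adjusted p 0.00698), but with single gradients left out the call held in 2 of 8 fits, those without LPS of LUL17 and without LPS+ET of LUL15. In the other 6 the adjusted p was 0.0107 (LUL16 left out of LPS+ET, -0.96) to 0.0274 (LUL16 left out of LPS). Tap1 was higher by 0.95 ± 0.24 (adjusted p 0.0130, block 0.00194), H2-K1 by 0.74 ± 0.33 (0.141, block 0.00933), and Psmb8 was at -0.87 ± 0.24 (0.0213, block 0.00244). With the block 4 of 10 members passed, Psmb10 among them, beside 2338 of 11368 genes. With LUL16 left out of LPS+ET the H2-K1 value was 0.43. Tap2 was at 0.75 ± 0.32 (adjusted p 0.120, block 0.0173), and at 0.34 without that gradient.

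In monosomes (fractions 4 to 7) and light polysomes (fractions 8 to 10) no member was called, beside 9.52% of 8932 and 10.6% of 9922 genes. At an unadjusted p under 0.05 there were 1 and 3 members, beside 2863 and 3233 genes. With the block, Psmb8 passed in monosomes (-0.59 ± 0.10, adjusted p 0.000131), and Tap1 (0.69 ± 0.12, 0.00031), Tapbp (-0.63 ± 0.13, 0.00114) and Psmb10 (-0.77 ± 0.15, 0.000714) in light polysomes. These are 1 and 3 of 10 members, beside 2195 of 8932 and 2482 of 9922 genes that passed with the block. Psmb10 was at -0.25 ± 0.21 in monosomes (adjusted p 0.445), and Tap2 at -0.47 ± 0.24 there (0.192) against 0.54 ± 0.25 in light polysomes (0.158).

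The place of each mRNA along the gradient was read from its share of signal per fraction, after each library was scaled to 1 total. B2m, Psmb8 and Psmb9 peaked earliest: B2m and Psmb8 in fractions 10 to 12 over the 12 gradients, and Psmb9 in fraction 10 to 12 in 11 of 12 gradients and in fraction 4 in the LPS gradient of pool LUL18. Psmb10 and H2-D1 peaked in 11 to 13, and H2-K1 and Tapbp in 12 to 14. The transporter mRNAs peaked deepest, Tap1 in 13 to 15 and Tap2 in 14 to 16. The mean fraction in LPS was 10.1 ± 0.0756 for B2m, 11.6 ± 0.106 for H2-K1 and 12.3 ± 0.0924 for Tap2 (SD, n = 4). By this mean Tapbp (12.0 ± 0.193) lay beyond Tap1 (11.7 ± 0.224), with overlapping ranges, and it had the larger share in heavy polysomes, 75.0% against 66.7%. Nlrc5 had no steady peak (fractions 4 to 15), with a median of 13 counts per library and 0 in 8 of 156 libraries.

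**Figure D3:**
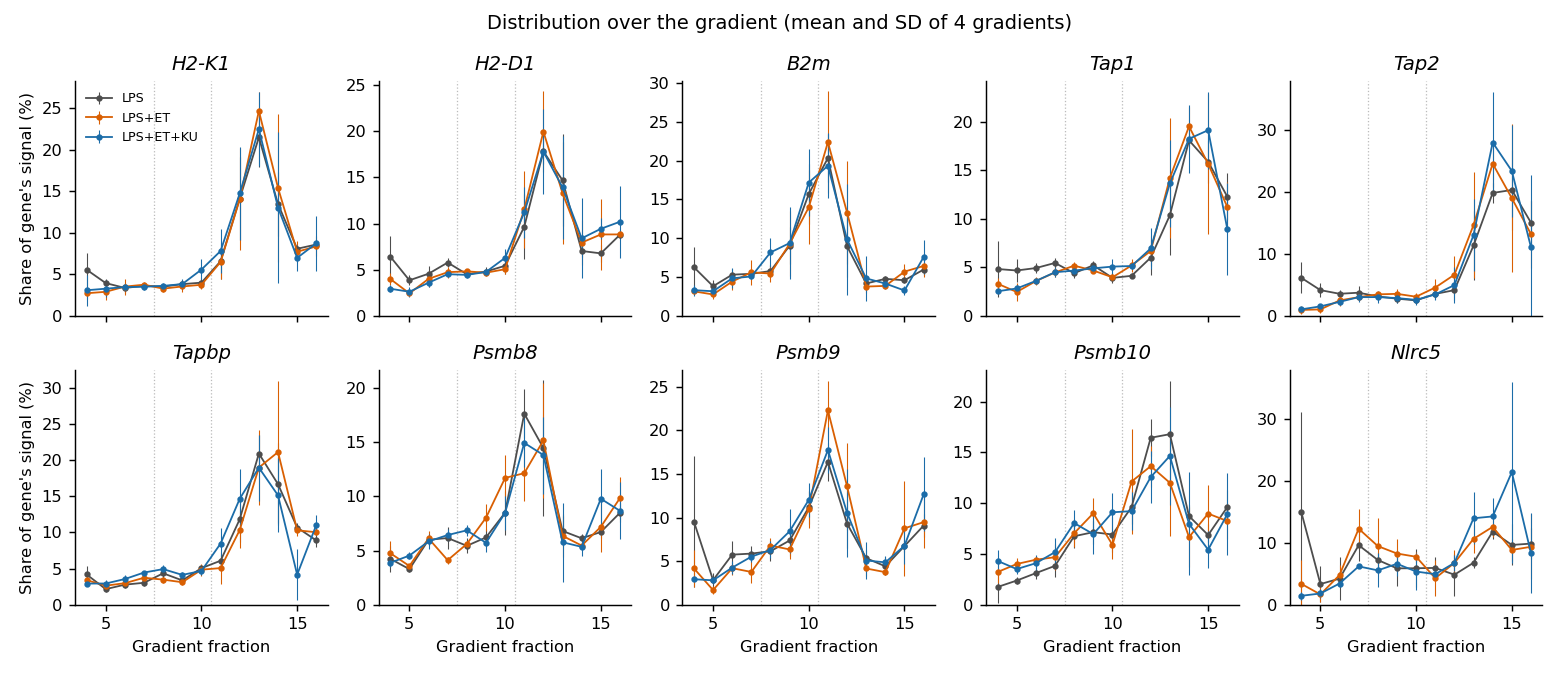
Share of each gene's signal (percent) in fractions 4 to 16, as the mean of 4 gradients with bars of 1 SD, in each treatment. B2m peaks near fraction 11 and Tap2 near fraction 14, and the Tapbp curve of LPS+ET+KU drops at fraction 15.

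Heavy polysomes were set against monosomes within each gradient, relative to the average mRNA. In LPS cells 6 of 10 members were enriched in heavy polysomes, beside 46.1% of 11463 genes called in either direction: Tapbp by 1.71 ± 0.16 (log2), Psmb10 by 1.46 ± 0.16, H2-K1 by 1.32 ± 0.15, Tap2 by 0.93 ± 0.18, H2-D1 by 0.79 ± 0.15 and Psmb8 by 0.54 ± 0.16. Tap1 (0.42 ± 0.16, adjusted p 0.0266), B2m (0.38 ± 0.23, 0.162), Psmb9 (0.28 ± 0.17, 0.157) and Nlrc5 (-0.07 ± 0.22, 0.798) were not called. In LPS+ET cells 7 were called (46.1% of all genes), led by Tap2 at 2.27 ± 0.19 and H2-K1 at 1.88 ± 0.15, with Tap1 (1.31 ± 0.16) and Psmb9 (1.01 ± 0.17) among them, while Psmb10 was at 0.78 ± 0.17 and Psmb8 (0.39 ± 0.16, adjusted p 0.0368) was not. In LPS+ET+KU cells 9 were called (50.7% of all genes), all but Psmb8 (0.46 ± 0.16, adjusted p 0.0121). These fits hold the gradient as a block. Without it Tap2 (adjusted p 0.0111) and Psmb8 (0.0318) were not called in LPS cells, nor Psmb10 (0.0107) and B2m (0.0178) with KU55933 added. With single LPS gradients left out the Psmb8 call held in 1 of 4 fits (adjusted p 0.00264 to 0.0334). With single LPS+ET+KU gradients left out the B2m call held in 1 of 4 (0.000987 to 0.0848) and the Nlrc5 call in 3 of 4 (0.00221 to 0.0167). With equal weight per fraction the median of all genes moved from 0.08 to 0.52 in LPS cells, from 0.16 to 0.57 with etoposide and from 0.14 to 0.61 with KU55933 added, so these values hold relative to that shift. The calls over all genes moved with it, from 2880 higher and 2410 lower to 4143 and 914 in LPS cells, from 3073 and 2206 to 4035 and 949 with etoposide, and from 3293 and 2522 to 4193 and 959 with KU55933 added.

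The share of both transporter mRNAs in heavy polysomes was higher, and that of Psmb10 lower, in every LPS+ET gradient than in every LPS gradient, although no member passed the test of the heavy polysome share, which 0.338% of 8000 genes did. At an unadjusted p under 0.05 there were 4 members, beside 1657 genes. Tap2 had 74.0%, 75.1%, 73.0% and 74.6% of its signal in heavy polysomes in LPS and 81.2%, 81.3%, 83.9% and 83.7% in LPS+ET. The groups were far apart, while the median gene was at 55.2% and 53.9%, and the difference of 0.50 ± 0.13 on the natural log odds scale had an adjusted p of 0.0455 (limma). Part of that distance sat in fraction 4, where the LPS libraries had 14724 to 419646 counts and held 1 to 11 Tap2 tags. Without fraction 4 the Tap2 shares were 77.1% to 81.5% in LPS and 82.2% to 84.7% in LPS+ET, still without overlap, with a difference of 0.28 ± 0.13 (adjusted p 0.225).

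In the count model of heavy polysomes against monosomes, which weights each library by its counts, the ratio of Tap2 rose by 1.33 ± 0.26 (log2, adjusted p 0.00248), beside 2.51% of 11463 genes called and a median over all genes of 0.10. Without fraction 4 it was 1.28 ± 0.27 (0.00420). The call held in 5 of 8 fits without single gradients and was lost with LUL16 left out of LPS+ET (0.93, adjusted p 0.0124) and with LUL15 (0.0147) or LUL16 (0.0140) left out of LPS. Tap1 was at 0.90 ± 0.23 (0.0137), and at 0.53 with LUL16 left out of LPS+ET. Psmb9 was at 0.73 ± 0.24 (0.0568), H2-K1 at 0.56 ± 0.20 (0.0902), H2-D1 at 0.56 ± 0.22 (0.115) and Psmb10 at -0.68 ± 0.24 (0.0743), none of them called.

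Heavy polysome shares of LPS and LPS+ET gradients did not overlap for 5 of 10 members, beside 13.5% of the genes. Tap1 had 64.9%, 69.3%, 68.3% and 64.3% in LPS and 72.2%, 71.1%, 73.7% and 72.7% in LPS+ET (0.27 ± 0.11 in log odds, adjusted p 0.190). Psmb9 had 50.7%, 48.2%, 57.3% and 48.9% against 60.2%, 65.1%, 64.1% and 58.9% (0.44 ± 0.14, 0.106). H2-D1 was at 63.8% to 66.7% against 68.9% to 72.0% (0.26 ± 0.11, 0.213). These 3 were higher in every LPS+ET gradient, whereas Psmb10 was lower in each. Psmb10 had 69.8%, 64.3%, 67.2% and 71.1% in LPS and 62.6%, 58.1%, 62.2% and 63.9% in LPS+ET (-0.28 ± 0.15, 0.289). Without fraction 4 the H2-D1 groups overlapped, with up to 72.1% in LPS and from 71.5% in LPS+ET, while those of Tap1, Tap2, Psmb9 and Psmb10 did not. Within LPS+ET the shares of B2m spread most, from 40.04% to 67.8%, with pool LUL16 lowest in each treatment.

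**Figure D4:**
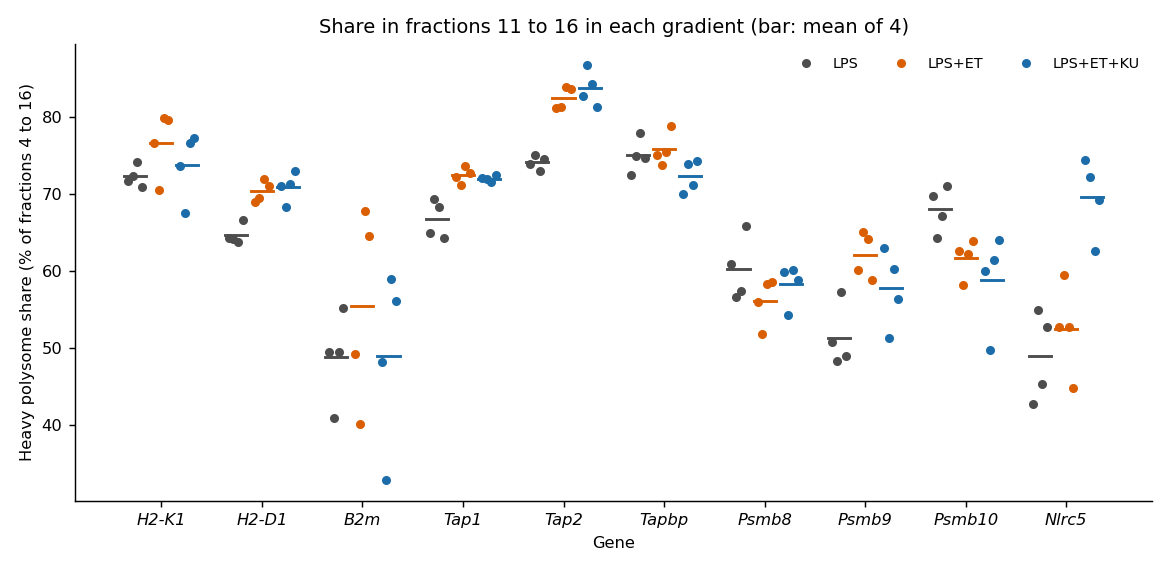
Share of each gene's signal in heavy polysomes (percent, fractions 11 to 16), with 1 point per gradient and bars for the mean of 4 gradients in LPS, LPS+ET and LPS+ET+KU. Tap2 lies at 73.0% to 75.1% in LPS and at 81.2% or above in the other groups, and Nlrc5 is highest in LPS+ET+KU.

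The polysome profile test of the study's design, treatment with its interaction against fraction alone over single libraries, called Psmb10 (adjusted p 3.44e-08), Tap1 (1.17e-05) and Psmb8 (1.79e-05) in LPS+ET against LPS, 3 of 10 members beside 31% of 10360 genes. With the block it also called Tap2 (0.000328), beside 4315 genes. This test responds to level as well as shape. The interaction with a term for each gradient, which responds to shape alone, called no member, beside 5.72% of the genes, and Tap2 came nearest (0.0386). At an unadjusted p under 0.05 that interaction had 4 members, Tap2, Tap1, Psmb9 and Psmb10, beside 2510 genes.

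The second question was what KU55933 did to the response. In ribosome-associated mRNA no member was called in LPS+ET+KU against LPS+ET, beside 0.455% of the genes, none with the block either (6.36%), none by DESeq2, and none at an unadjusted p under 0.05. The medians were 0.04 over the members and 0.04 over all genes, and no member's CPM groups were apart, beside 8.57% of the genes. Psmb10 stayed low, with 108, 82.2, 96.4 and 84.0 CPM in LPS+ET+KU, overlapping the LPS+ET gradients (0.05 ± 0.19, adjusted p 0.928). H2-D1 had 1187, 2103, 2107 and 1519 (0.31 ± 0.23, adjusted p 0.558), and Nlrc5 13.3, 18.3, 13.9 and 15.8 (-0.34 ± 0.16, 0.323). A p above the threshold does not show that the inhibitor left these mRNAs as they were.

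By class, no member was called in LPS+ET+KU against LPS+ET in monosomes, light or heavy polysomes, beside 0.213%, 0.292% and 0.572% of the genes, with 1, 3 and 0 members at an unadjusted p under 0.05, beside 1204, 1515 and 1691 genes. With the block H2-K1 was higher in light polysomes by 0.64 ± 0.13 (adjusted p 0.00337, without it 0.277). Its ratio of heavy polysomes to monosomes was lower by 0.54 ± 0.20, not called (adjusted p 0.314, with 0.0262% of all genes called).

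Nlrc5 was the member whose heavy polysome share did not overlap between LPS+ET and LPS+ET+KU, 1 of 10 beside 5.34% of the genes. It had 52.7%, 59.5%, 52.7% and 44.8% in LPS+ET and 74.5%, 72.2%, 62.6% and 69.2% in LPS+ET+KU. The difference in log odds was 0.73 ± 0.17 with an adjusted p of 0.249, and 0% of genes were called. These shares rest on few tags: in pool LUL15 of LPS+ET+KU, 7 tags in the fraction 15 library of 60143 counts made up 42.9% of the gene's signal. With counts as deposited the LPS+ET gradients averaged 61.6% and those with KU55933 64.1%.

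Tapbp was the member called by the profile test in LPS+ET+KU against LPS+ET (adjusted p 0.000354), 1 of 10 beside 8.01% of 10472 genes, and the interaction with a term for each gradient called it too (0.000581, 3.63% of genes). With the block H2-K1 (0.00787) and H2-D1 (0.00292) joined it. In fraction 15 Tapbp had 9.64%, 11.2%, 10.7% and 9.64% of its signal in LPS+ET and 3.37%, 1.95%, 9.30% and 2.03% in LPS+ET+KU. Only the LPS+ET+KU gradient of pool LUL17 came near the LPS+ET values. The fraction 15 libraries held 60143, 124284, 593423 and 338837 counts in LPS+ET+KU and 896258, 80915, 485767 and 444603 in LPS+ET. The part of library size in this difference was not tested. Without fraction 15 Tapbp was not called (adjusted p 0.0171), and in 5 of 8 fits with a gradient left out the call was lost: LUL17 (0.0177) or LUL18 (0.0239) of LPS+ET, and LUL15 (0.0254), LUL16 (0.0354) or LUL18 (0.0130) of LPS+ET+KU. Without the LUL17 gradient of LPS+ET+KU the adjusted p was 5.24e-08. Its heavy polysome share was 73.7% to 78.9% in LPS+ET and 70.04% to 74.3% in LPS+ET+KU (-0.18 ± 0.12 in log odds, adjusted p 0.736).

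Against LPS, which is the control of the first comparison too, LPS+ET+KU again had Psmb10 as the called member, 1 of 10 beside 10.7% of the genes. It fell by 0.88 on the log2 scale (± 0.20, adjusted p 0.00635). The call held in 2 of 8 fits with a gradient left out, those without LPS of LUL17 (0.00526) and without LPS+ET+KU of LUL15 (0.00959), and in the other 6 the adjusted p was 0.0109 to 0.0230. With the 8 compared gradients alone it was 0.0131. With the block 5 members passed, beside 28.1% of the genes: Tap1 (0.56, adjusted p 0.00267), Tap2 (0.44, 0.00819) and Psmb9 (0.54, 0.00532) higher, and Psmb8 (-0.55, 0.00764) and Psmb10 (-0.87, 0.000726) lower. Without the block these were at 0.57, 0.45, 0.57, -0.53 and -0.88, and Psmb9 had 173, 232, 302 and 313 CPM in LPS+ET+KU. Psmb8 (771, 1032, 1055 and 1217 CPM) and Psmb10 lay below every LPS gradient, 2 of 10 beside 26.4% of the genes. With equal weight per fraction H2-D1 was the called member instead (0.84, adjusted p 0.00944), and calls over all genes went from 797 higher and 564 lower to 620 and 172.

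The exchange of proteasome subunits was read as the count ratio of an inducible subunit to the one it replaces. In LPS cells the log2 ratio of Psmb8 to Psmb5 averaged 6.52 ± 0.28 (SD, n = 4), with etoposide 6.12 ± 0.45, and with KU55933 added 6.59 ± 0.49. That of Psmb9 to Psmb6 was -0.64 ± 0.45, -0.46 ± 0.43 and 0.08 ± 0.32. None of the 4 differences passed: -0.40 and 0.18 for LPS+ET against LPS (exact two-sided permutation p 0.229 and 0.629), 0.47 and 0.54 for LPS+ET+KU against LPS+ET (0.229 and 0.114), with Benjamini-Hochberg values of 0.305 to 0.629 over the 4 tests. The smallest p that 4 against 4 allows is 0.0286. With LUL16 left out of LPS+ET, the first difference was -0.59 with an exact p of 0.0286, here the smallest p reached. Psmb7 had at most 2 counts in a gradient, so a ratio to Psmb10 was not computed. Psmb5 also had few counts, 47 to 357 per gradient and 16.1 ± 2.88 CPM in LPS against 269 ± 51.1 for Psmb6. The counted poly(A) sites of Psmb5, Psmb6 and Psmb7 were not examined, so few counts need not mean little mRNA. The size of a ratio therefore does not measure how much of each subunit's mRNA was present.

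Among 13 factors of class I promoters, 1 rose and 3 fell in LPS+ET against LPS, beside 12.7% of all genes called, with a median of -0.01. Nfyb, a subunit of the Y box factor NF-Y, rose from 159 ± 14.9 to 574 ± 190 CPM (1.85 ± 0.27, adjusted p 0.000281). Ciita, the class II counterpart of Nlrc5, fell from 76.4 ± 6.31 to 25.4 ± 8.82 (-1.60 ± 0.27, 0.000904). Rfx5, an X box factor, fell by 1.18 (38.7 ± 6.87 to 17.2 ± 4.69 CPM, 0.00278), and Irf2, an interferon regulatory factor, by 0.98 (82.2 ± 8.23 to 41.4 ± 9.56, 0.00170). With the block 2 were higher and 4 lower, beside 26.7% of all genes. Against LPS, LPS+ET+KU had 0 higher and 3 lower, beside 10.7% of all genes: Ciita (-1.39), Irf2 (-1.17) and Nfyc, the NF-Y subunit C (-0.88). In LPS+ET+KU against LPS+ET none was called, beside 0.455% of all genes. Nfyb stood at 291 ± 71.3 CPM there (-0.98 ± 0.26, adjusted p 0.0727), and 1 of the 13 was called lower with the block, namely Nfyb (0.00409), beside 6.36% of all genes.

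Of 6 genes for proteasome activators and assembly, Psme3, the nuclear proteasome activator, fell after etoposide (851 ± 204 to 421 ± 104.3 CPM, -1.01 ± 0.22, adjusted p 0.00516) and was also lower in LPS+ET+KU against LPS (-1.12, 0.00345). None of 11 loading and trimming genes and neither Psmb5 nor Psmb6 was called in any of the 3 comparisons. Over all genes 12.7%, 0.455% and 10.7% were called in LPS+ET against LPS, LPS+ET+KU against LPS+ET and LPS+ET+KU against LPS. With the block 2, 2 and 3 of the 11 were lower in the 3 comparisons, beside 26.7%, 6.36% and 28.1% of all genes. Of 19 other class I and class I-like chains 14 were in the table and 10 were tested. H2-M3, which presents formylated peptides, had 47.7 ± 2.07 CPM in LPS cells, 22.1 ± 2.81 with etoposide and 42.1 ± 6.26 with KU55933 added. It fell with etoposide (-1.11 ± 0.16, adjusted p 0.000243) and was higher with KU55933 than with etoposide alone (0.93 ± 0.16, 0.00977). These comparisons share the LPS+ET gradients. Over the 10 chains the median was -0.21 for LPS+ET against LPS with 1 called lower, 0.80 for LPS+ET+KU against LPS+ET with 1 called higher, and 0.63 against LPS with 0 called. With the block 2 were lower, 3 higher and 2 higher, beside the same 26.7%, 6.36% and 28.1% of all genes. Without the block, the KU55933 call of H2-M3 was the only one in the lists for that comparison.

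By the rule for likeness, the 5 genes whose log2 CPM over the 12 gradients ran closest to the mean standardised pattern of the members were Brcc3 (r = 0.92), Atn1 (0.90), Ccdc25 (0.86), Fam63a (0.85) and Plscr3 (0.85), out of 7990. The points share library pools and depth, and the pattern mixes members that moved in opposite directions. Among the members Tap1 and Tapbp ran opposite to each other (r = -0.83, and -0.77 within treatments), and H2-D1 and Psmb9 together (0.82, and 0.73 within treatments). These were the lowest and highest values over all member pairs. Within treatments Psmb8 and Psmb9 (0.84), H2-K1 and Tapbp (0.79), Tap1 and Psmb9 (0.755) and H2-D1 and Psmb8 (0.754) ran closer together than H2-D1 and Psmb9.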

How the data were processed

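Polyadenylated 3′ ends were sequenced from sucrose gradient fractions. Per the labels the authors used TopHat2 2.0.12, HTSeq and DESeq2 1.6.3 with GRCm38/mm10, and deposited whole-number counts per gene and fraction, not normalised. The study's methods name TopHat2 and HTSeq for its mRNA sequencing of whole cells. For the fraction reads those methods describe another route: splitting by barcode, removal of PCR duplicates by barcode, trimming of A tracts and mapping to GRCm38/mm10. No column was left unused. Of the columns 79 matched 1 sample and 78 a treatment and fraction only, in pools LUL16 and LUL18, where the gradient was read from the column name. The fraction 17 library (777 counts) entered no test.

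Counts of fractions 4 to 16, and of the 3 fraction classes, were summed per gradient, filtered (filterByExpr), scaled (TMM) and tested with edgeR 4.0.16 (quasi-likelihood, R 4.3.3) at a Benjamini-Hochberg adjusted p under 0.01 over all genes. Shares used each library scaled to its total, with 1 CPM added, for genes with a mean of 100.0 counts per gradient, and limma 3.58.1 on the logit. The profile model treats the 13 libraries of a gradient as independent. Ratios were tested by exact permutation (Python 3.11.15). Scripts were tested on simulated data. The 10 members, the lists and the motifs were chosen with earlier results of these data known. All members were named, with the list genes called in ribosome-associated mRNA (at most 8), Psmb5, Psmb6 and Psmb7, and the 5 genes most like the members. The alternatives were a pool block, DESeq2 1.42.0, RLE factors, no filter, fewer gradients, equal weight per fraction and other thresholds. The heavy-to-monosome ratio change and the fits without fraction 4 or 15 were added after values were seen. Of each replicate pair of a treatment, none agreed within sampling noise.

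The pool code in the column names was taken to pair the samples. Deviations from the treatment means correlated at 0.36 to 0.84 (median 0.59) in 12 of 12 same-pool pairs and at -0.65 to 0.33 (median -0.21) between pools. Promoter sequences came from RefSeq (GRCm38.p6). Depth was 14724 to 4170688 counts per library, so 1 count in the smallest library is 67.9 CPM, and floors cover counting error only. One B cell marker, and the sum that holds it, is not reported here.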

Additional observations from a re-analysis of the deposited data

Results flagged for a closer look

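The heavy polysome share of H2-D1 in the LPS gradient of pool LUL18 was 66.7%, far from the other LPS gradients at 63.8% to 64.3%. Its gap to the nearest of them was 0.8295 of the group's range, just past Dixon's critical value for 4 samples. It was the only one of 60 groups of 4 gradients set apart in this way, and chance sets apart about 1 in 20 groups. Its cause was not tested.

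The fraction 17 library of the LPS gradient of pool LUL16, used in no comparison, held 4 tags of Tapbp among 777 counts, just above the 3 counts that a count of 0 allows. Tapbp is the most abundant member.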

How the results depend on the processing

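Calls among the 10 members moved with the pool as a block: from 1 to 4 in LPS+ET against LPS, from 1 to 5 in LPS+ET+KU against LPS, from 0 to 1 in monosomes, from 0 to 3 in light polysomes, from 1 to 4 in heavy polysomes and from 3 to 4 in the profile test after etoposide, and for KU55933 (LPS+ET+KU against LPS+ET) from 0 to 1 in light polysomes and from 1 to 3 in the profile test. After etoposide DESeq2 called 3, equal weight per fraction 0 and an adjusted p under 0.05 gave 3. The interaction alone, with or without a term per gradient, called 0 profiles, and the ratio in the count model 1 in place of 0 heavy polysome shares. Without fraction 15 the KU55933 profile call fell to 0. The etoposide profile test also called Tapbp without fraction 4 (adjusted p 0.00799) and Tap2 without fraction 15 (0.00317). Against LPS, LPS+ET+KU had 0 members with the 8 compared gradients alone and 2 at an adjusted p under 0.05. With single gradients left out, calls were 0 to 1 for LPS+ET against LPS in sums, heavy polysomes and ratio change and for LPS+ET+KU against LPS, 3 to 6 for the etoposide profile and 0 to 2 for the KU55933 profile. Nlrc5 in heavy polysomes against monosomes of LPS cells changed sign with equal weight (0.056) and ranged from -0.22 to 0.13, and Psmb10 in LPS+ET+KU against LPS+ET from -0.022 to 0.17. The log2 ratio differences ranged from -0.59 to -0.23 (Psmb8 to Psmb5, etoposide) and from 0.33 to 0.69 (Psmb9 to Psmb6, KU55933). With the replicate block these 2 stayed at -0.40 and 0.54 (exact sign flips, p 0.375 and 0.125, the smallest possible being 0.125). Heavy polysomes against monosomes, fitted with the block, went without it from 6, 7 and 9 members to 4, 7 and 7. The block changed no other member's call in the tests run with and without it. Of the alternative values other than counts of calls, 970 kept direction and side of the threshold, 41 newly passed it, 45 no longer passed it and 4 changed sign. The cause was not tested. Over all genes, calls after etoposide went from 1618 to 3403 with the block, 1042 with equal weight and 2875 at 0.05. For KU55933 they went from 58 to 811 with the block, 413 with DESeq2, 0 with 8 gradients, 18 with equal weight and 319 at 0.05, and against LPS from 1361 to 3589, 2319 (DESeq2), 792 (equal weight) and 2903 (at 0.05). The block took the etoposide class counts from 850, 1055 and 1101 to 2195, 2482 and 2338, and those for KU55933 from 19, 29 and 65 to 502, 531 and 372. The etoposide profile count went from 3208 to 142 for the interaction alone and 593 with a term per gradient, and the KU55933 count from 839 to 110, 380 and, with the block, 1919. Heavy shares went from 27 to 0 (counts as deposited), 8 (fractions 12 to 16), 69 (a higher count minimum) and 41 (no fraction 4), the KU55933 ratio count from 3 to 5 (no fraction 4), and heavy against monosome calls without a gradient term from 5290, 5279 and 5815 to 3491, 3734 and 3716. Nlrc5, with a median of 13 counts per library, is limited by depth.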
